A study of Mus musculus with 24 samples.

Results

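Ribosome footprints were compared between forelimbs that carried Cre over a floxed Rps6 allele and forelimbs with the same floxed allele and no Cre, both with intact Trp53. The comparison used 6 of the 24 libraries of the series, the 3 footprint libraries of Prx1Cre;Rps6lox/+;Trp53+/+ embryos (Rps6 het, Trp53 WT) and the 3 of Rps6lox/+;Trp53+/+ embryos (Rps6 WT, Trp53 WT). All embryos were mouse embryos at stage E10.5. Its members were the transcripts that passed a filter on low footprint counts, 12147 of the 21960 rows of the deposited table. Values from Rps6lox/+;Trp53-/- embryos (Rps6 WT, Trp53 null), from Prx1Cre;Rps6lox/+;Trp53-/- embryos (Rps6 het, Trp53 null) and from RNA libraries of the same limbs are set beside these footprints where they bear on them. Each replicate pooled material of 2 samples of one genotype, and each sample was the limb pair of one embryo. The groups differ in the presence of Cre as well as in Rps6, and these cannot be told apart. The table pairs its transcript IDs with no gene names and 0 of them matched the name tables used here, so the level of Rps6, the level of Trp53 and the markers of limb mesenchyme and of other cell types were not checked.

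The product of Rps6 is one of the proteins that build the small subunit of the ribosome. Cre under Prx1 control is active in limb bud mesenchyme, so a whole forelimb also holds ectoderm, vessel and blood cells outside its reach. When a cell makes too little of one ribosomal protein, other ribosomal proteins that are left unassembled can bind Mdm2, the ligase that marks p53 for degradation, and p53, encoded by Trp53, then builds up. A ribosome shields a short stretch of the mRNA it sits on from RNase, and sequencing these footprints counts the ribosomes on each coding sequence. The footprint count of a transcript therefore moves with both the amount of its mRNA and the number of ribosomes on each copy.

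The 3 Rps6 WT footprint libraries held 8939697 to 16835045 counts and the 3 Rps6 het libraries 7026056 to 13143323. Levels are given as CPM, each count scaled to a common library total after TMM normalization, so they are shares of the footprints of a library, and a change in the total number of footprints per cell would not be seen. In limbs made of several cell types, fewer cells of a type and less RNA per cell cannot be told apart. Among the rows that were not tested, 5426 had no count in any of the 12 footprint libraries and 4387 had some. The filter asked for 0.852 CPM in at least 3 of those 12 libraries. The 108 rows that passed in exactly 3 libraries had a mean count per library of 7.58 (median over rows, 6 libraries compared here), and the 132 that failed with 2 had one of 7. The tested transcripts held 99.939% of the footprints.

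The pools of one genotype resembled each other more than pools of different genotypes did. Over the 8284 transcripts with a mean level of at least 10 CPM, the root mean square difference in log2 CPM was 0.129 to 0.134 between Rps6 WT pools, 0.15 to 0.22 between Rps6 het pools and 0.23 to 0.308 between a pool of each. The first principal component of the 6 libraries carried 49.2% of their variance and placed the Rps6 WT pools between −18.77 and −15.32 and the Rps6 het pools between 12.93 and 20.41. The second carried 18.1% and parted 2 of the Rps6 het pools from each other. Replicate 1 lay at 17.86 and replicate 2 at −18.71, and the other 4 pools lay between −2.86 and 1.92. By these measures the Rps6 het pools varied more among themselves, with a median SD of log2 CPM of 0.0957 against 0.0859 in Rps6 WT. Counting noise is larger in smaller libraries, and the smallest library was of Rps6 het. Its part in this was not tested. The chi-square per degree of freedom, set against counting noise, was 2.31 to 2.73 between Rps6 het pools and 2.15 to 3.36 between Rps6 WT pools. Where pools differ by more than counting noise this value grows with library size. The highest, 3.36, was between Rps6 WT replicates 1 and 3, with 12872452 and 16835045 counts. These ranges therefore do not compare the spread of the 2 genotypes.

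Footprints of a large set of transcripts changed, mostly by little. Of the 12147 transcripts, 3019 (24.9%) were called, that is had an adjusted p under 0.05 in edgeR's quasi-likelihood test with Benjamini-Hochberg adjustment over all of them. Footprints of 1598 transcripts rose in Rps6 het (13.2%) and those of 1421 fell (11.7%). The median rise was 1.22-fold and the median of the falls left 0.809 of the Rps6 WT level. Between the groups, the 3 levels and the 3 levels did not overlap for 4580 transcripts (37.7%), and 2829 of these were also called (23.3% of those tested). At an adjusted p under 0.001 by edgeR, 1006 transcripts passed, 602 higher and 404 lower. The smallest change called was 0.09 on the log2 scale. The median SE of a log2 fold change was 0.086 over all transcripts tested.

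Large changes were few and had different ranges in each direction. Rises of more than 0.5 on the log2 scale were called for 285 transcripts (2.35%) and falls of that size for 352 (2.9%). Rises of more than 1 on the log2 scale were called for 65 transcripts (0.535% of those tested) and falls of that size for 99 (0.815%). Beyond 2 on the log2 scale there were 20 rises (0.165%) and 7 falls (0.0576%). These 20 transcripts went from a median of 0.697 CPM in Rps6 WT to 16.4 CPM in Rps6 het, while the 7 went from 1.13 to 0.185 CPM. Of the 65 larger rises, 30 ended above a mean of 10 CPM in Rps6 het. Of the 99 larger falls, 13 started above 10 CPM in Rps6 WT. By the mean level over the 6 libraries, 30 of the 65 larger rises lay under 3 CPM and 11 at 3 to 10 CPM. Of the 99 larger falls, 72 and 17 lay in these ranges. Large changes in both directions thus belonged for the most part to transcripts with few footprints.

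**Figure D1:**
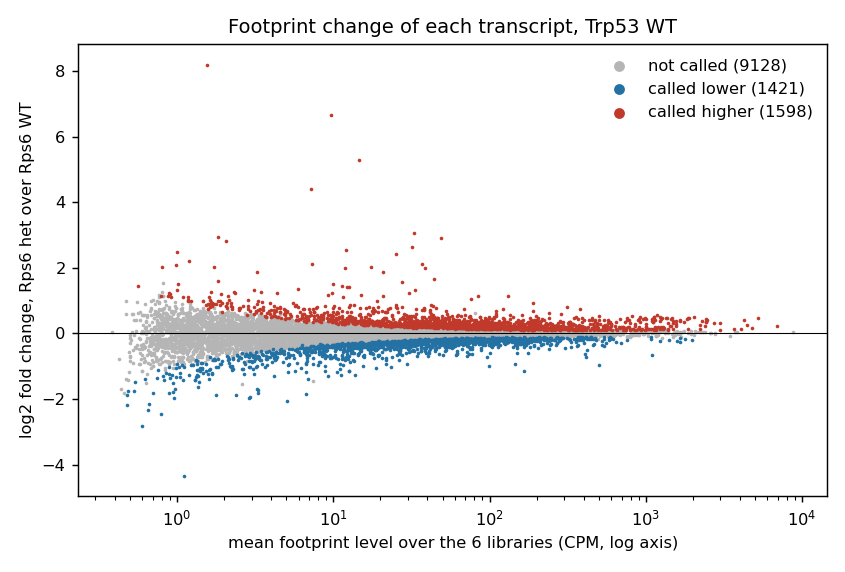
Each point is 1 of the 12147 transcripts, with its mean footprint level over the 6 libraries in CPM on a log axis and its log2 fold change of Rps6 het over Rps6 WT. The 1598 called rises are red, the 1421 called falls blue and the 9128 transcripts not called grey. The highest point had 0 counts in all 3 Rps6 WT libraries, and its height depends on the prior count of the fit.

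How many transcripts were called, and in which direction, moved with the footprint level. A level counts reads over a whole coding sequence and is not per length, so it stands for the number of footprints behind a value. Of the 1819 transcripts under 3 CPM, 183 were called (10.1%). Of these 66 rose and 117 fell, and the median SE over the range was 0.31 on the log2 scale. Among the 2919 transcripts at 10 to 30 CPM, 603 were called (20.7%), 266 higher and 337 lower. Among the 2149 transcripts at 100 CPM or more, 903 were called (42%), 599 higher and 304 lower, and the median SE was 0.04. Rises made up 36.1% of the calls in the lowest level range, 52% at 30 to 100 CPM and 66.3% in the highest. This balance rests on the scaling of the libraries. The TMM factors were 1.005 to 1.026 in Rps6 WT and 0.9636 to 0.9813 in Rps6 het, and a lower factor raises the levels of a library. The balance by level was not tested under another scaling. The median size of a called change fell over the same ranges, from 1.02 on the log2 scale under 3 CPM to 0.2 at 100 CPM or more. Under 3 CPM the smallest change called was 0.56 on the log2 scale, so smaller changes of these transcripts could not be told from no change.

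**Figure D2:**
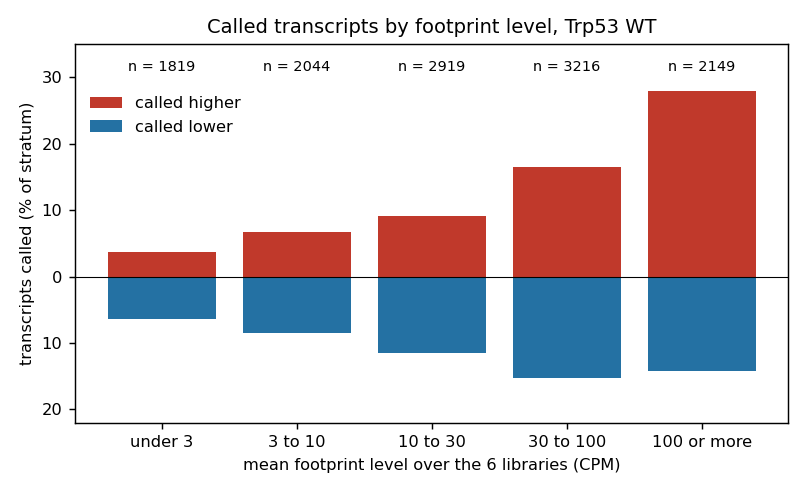
Bars give the percentage of the transcripts in each range of mean footprint level (CPM) that were called higher (red, upwards) or lower (blue, downwards) in Rps6 het, and n is the number of transcripts in the range. In the highest range 599 of 2149 transcripts were called higher and 304 lower.

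The called transcripts carried a substantial part of all footprints. The 1598 transcripts that rose held 29.83%, 29.84% and 29.25% of the footprints in the 3 Rps6 WT pools and 34.73%, 34.54% and 33.51% in the 3 Rps6 het pools. The 1421 that fell held 12.27%, 12.41% and 12.71% in Rps6 WT and 9.895%, 9.917% and 10.26% in Rps6 het. These shares describe transcripts chosen for their change in the same 6 libraries and are given with no test. The 65 transcripts that rose by more than 1 on the log2 scale had only a small part in them, 0.04355% to 0.04685% in Rps6 WT and 0.1338% to 0.1369% in Rps6 het. Most of the shift lay in abundant transcripts with small changes. The 1313 rises of up to 0.5 on the log2 scale held on average 28.6% of the footprints in Rps6 WT and 32.7% in Rps6 het.

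The Trp53 null pools, 3 of each Rps6 genotype, were not in the contrast that chose these transcripts. They did enter its filter, its normalization and its estimate of the spread. There, the set that rose with Trp53 held 29.71%, 30.1% and 29.95% of the footprints in Rps6 WT and 31.12%, 31.58% and 31.14% in Rps6 het. The set that fell held 12.25% to 12.36% in Rps6 WT and 11.48% to 11.87% in Rps6 het. In both sets the Rps6 het pools lay on the same side as with Trp53, without overlap, and by a smaller distance. With 3 pools against 3, an exact permutation test of such shares cannot go below p = 0.1.

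**Figure D3:**
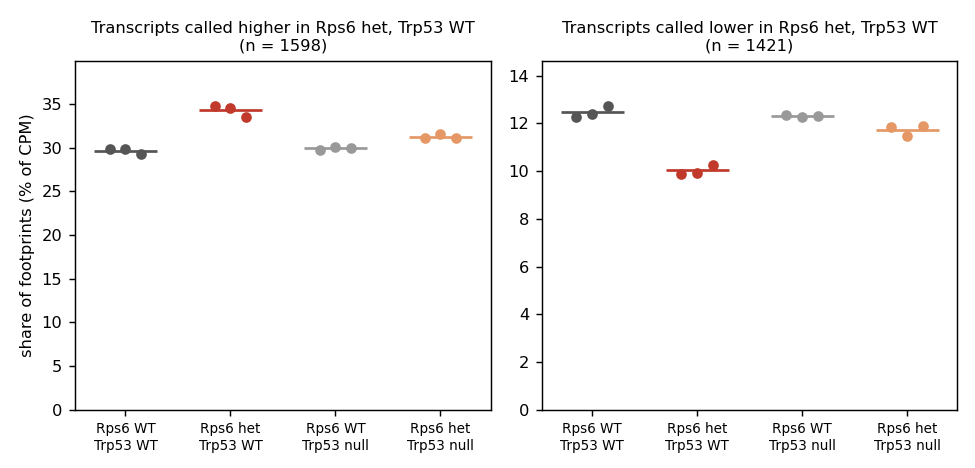
Points give the percentage of a pool's footprints that fell on the 1598 transcripts called higher (left) and the 1421 called lower (right) in Rps6 het with Trp53 WT, for the 3 pools of each of the 4 genotypes, and lines are means of 3. The sets were chosen on the contrast between the 6 Trp53 WT pools, where the shares rise from 29.25% to 29.84% up to 33.51% to 34.73% on the left.

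Footprints that were present in one genotype and near absent in the other were rare. Only 1 transcript had at most 3 counts in each Rps6 WT library and at least 10 in each Rps6 het library. It had 0 counts in the 3 Rps6 WT libraries and 18 to 46 in the Rps6 het libraries, and it was at or under 3 counts in all 6 Trp53 null footprint libraries. Against a floor of 3 counts per library its mean level was at least 12.7-fold higher in Rps6 het. The reverse pattern was found for 2 transcripts, with 10 to 57 counts in the Rps6 WT libraries, and both were called. These 3 transcripts were picked out after their values were seen.

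The transcripts with the smallest p in each direction are given by ID, 2 that rose and 2 that fell. ENSMUST00000119901.8 had 10.8, 12.1 and 11.6 CPM in the 3 Rps6 WT pools and 83.7, 89.3 and 86.3 CPM in the 3 Rps6 het pools. Every Rps6 het pool was far above every Rps6 WT pool, and the pools of a genotype differed little. These levels rest on 109 to 201 counts in Rps6 WT and 610 to 1113 in Rps6 het. The rise was 7.51-fold, or 2.91 ± 0.072 (SE) on the log2 scale (edgeR adjusted p = 1.1e-20). In Trp53 null its footprint level was 11.7, 12 and 11.2 CPM in Rps6 WT and 12.1, 13.3 and 15 CPM in Rps6 het. These ranges did not overlap, but the difference of 0.2 ± 0.095 (SE) on the log2 scale was not called (edgeR adjusted p = 0.391).

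The RNA of ENSMUST00000119901.8 was 1.82, 1.3 and 1.94 CPM in Rps6 WT and 19.5, 13.6 and 19.7 CPM in Rps6 het, all with Trp53. Its RNA thus had 26 to 52 counts per Rps6 WT library, fewer than its footprints. RNA rose by 3.36 ± 0.2 (SE) on the log2 scale (edgeR adjusted p = 1.4e-08). The footprint change less the RNA change was −0.45 ± 0.22 (SE) and was not called (edgeR adjusted p = 0.506).

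ENSMUST00000020576.7 had fewer footprints at the start, 6.96, 6.54 and 7.3 CPM in the Rps6 WT pools, and reached 51.1, 60.2 and 63.6 CPM in the Rps6 het pools. Replicate 1 was the lowest of the Rps6 het pools and was still far above the Rps6 WT range. The rise was 8.34-fold, 3.06 ± 0.096 (SE) on the log2 scale (edgeR adjusted p = 2.41e-18). Its RNA was much more abundant by counts, 47.1 to 50.1 CPM in Rps6 WT and 423 to 478 CPM in Rps6 het. In Trp53 null its footprints stood at 5.55, 6.35 and 6.63 CPM in Rps6 WT and 4.29, 4.73 and 4.74 CPM in Rps6 het. There the Rps6 het pools were the lower ones, by 0.43 ± 0.15 (SE) on the log2 scale, and the difference was not called (edgeR adjusted p = 0.224).

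ENSMUST00000000476.14, an abundant transcript by footprints, had 636, 667 and 697 CPM in Rps6 WT and 332, 340 and 351 CPM in Rps6 het. Its levels in Rps6 het were near 0.512 of those in Rps6 WT, and the 3 pools of each genotype lay close together. The fall was −0.97 ± 0.042 (SE) on the log2 scale (edgeR adjusted p = 1.65e-15). RNA fell by the same amount, −0.97 ± 0.057 (SE), from 601 to 644 CPM in Rps6 WT down to 298 to 329 CPM in Rps6 het. In Trp53 null the footprint levels were 652, 662 and 663 CPM in Rps6 WT and 636, 589 and 652 CPM in Rps6 het. The highest of these Rps6 het levels met the lowest Rps6 WT level, and the difference of −0.07 ± 0.041 (SE) was not called (edgeR adjusted p = 0.49).

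ENSMUST00000000579.2 had 223, 230 and 233 CPM in Rps6 WT and 101, 95.6 and 112 CPM in Rps6 het. The 2 groups were far apart, and the footprints fell by −1.14 ± 0.057 (SE) on the log2 scale (edgeR adjusted p = 3.18e-14). Its RNA was 94.4, 83.4 and 89.8 CPM in Rps6 WT and 45, 38.4 and 54.7 CPM in Rps6 het, a fall of −0.95 ± 0.11 (SE) with an edgeR adjusted p = 2.71e-05. The footprint change less the RNA change, −0.19 ± 0.14 (SE), was not called (edgeR adjusted p = 0.736). In Trp53 null the footprint levels were 239, 212 and 219 CPM in Rps6 WT and 213, 184 and 200 CPM in Rps6 het, which overlapped slightly. That difference was −0.17 ± 0.053 (SE) on the log2 scale, in the same direction as with Trp53, and was not called (edgeR adjusted p = 0.157).

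**Figure D4:**
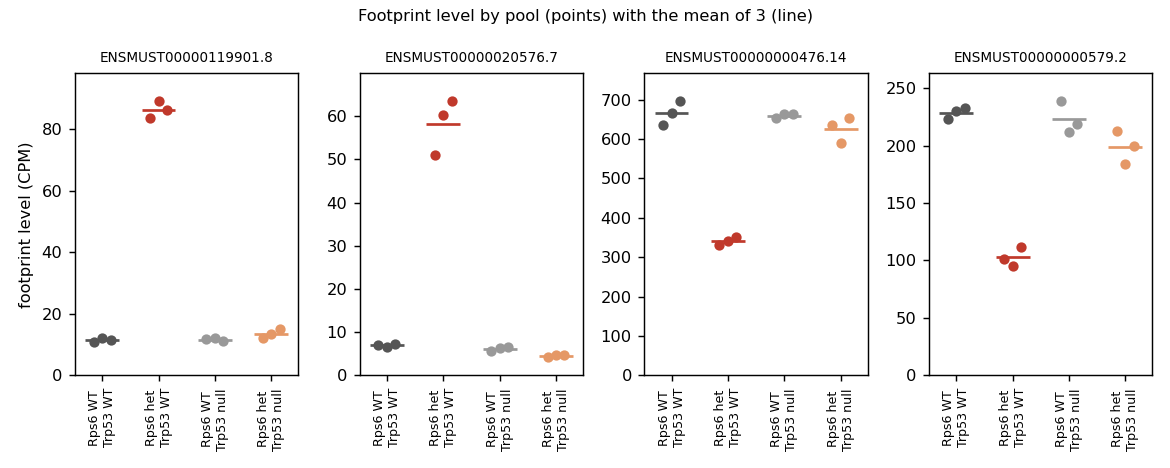
Points give the footprint level in CPM (linear axes from 0) of the 4 transcripts in each of the 3 pools of the 4 genotypes, and lines are means of 3. The Rps6 het, Trp53 WT pools stand apart from the pools of the other 3 genotypes in every panel, for example at 83.7 to 89.3 CPM against at most 15 CPM in the first.

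RNA from other parts of the same pools shows how far the footprint changes were matched by a change in the transcript. The footprint and RNA libraries of a pool share its embryos, so the changes are given side by side. For the 20 transcripts whose footprints rose by more than 2 on the log2 scale, the median was 2.52 in footprints and 2.49 in RNA, where 19 were tested. The footprint median stays at 2.52 with the transcript that had no count in Rps6 WT set at its lower bound. For the 45 rises of 1 to 2 the medians were 1.23 and 1.08, and for the 220 rises of 0.5 to 1 they were 0.67 and 0.52. For the 1313 smaller rises they were 0.25 and 0.2. Large rises in footprints thus came with large median rises in RNA.

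Transcripts whose footprints fell also had negative median RNA changes. For the 92 falls of 1 to 2 on the log2 scale the median was −1.22 in footprints and −0.87 in RNA, and for the 253 falls of 0.5 to 1 it was −0.66 and −0.51. For the 1069 smaller falls it was −0.26 and −0.17. The 7 falls beyond 2 had medians of −2.33 and −2.08, with 6 tested in RNA. Transcripts not called in footprints had a median RNA change of −0.01, with a middle range from −0.12 to 0.11. The classes were cut on the size and call of the footprint change, which by itself makes their footprint medians larger. A smaller median in RNA is therefore not read as a difference between footprints and RNA, for rises or for falls.

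A direct test of the footprint change against the RNA change, the change in translational efficiency, called 165 of 14080 transcripts (1.17%). Efficiency was higher in Rps6 het for 70 of them (0.497%) and lower for 95 (0.675%). Without a filter on low counts 282 were called, and by DESeq2 261. With the pool as a block, 393 were called, 119 higher and 274 lower. Leaving out Rps6 WT replicate 1, 2 or 3 gave 108, 79 and 58 calls, and leaving out Rps6 het replicate 1 or 3 gave 76 and 95. The balance between directions turned in 3 of these fits, with 42 higher and 37 lower without Rps6 WT replicate 2, 30 and 28 without Rps6 WT replicate 3, and 53 and 42 without Rps6 het replicate 3. For most transcripts a footprint change different from the RNA change was therefore not shown with 3 pools a group. Of the 14411 transcripts tested in RNA itself, 24.8% were called, 3580 in all. That count was 2211 without Rps6 WT replicate 3 and 2292 without Rps6 het replicate 1.

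Without Trp53 far fewer footprint changes were called. The same comparison in Trp53 null pools called 110 of the 12147 transcripts (0.906%), 75 higher (0.617%) and 35 lower (0.288%) in Rps6 het. It contrasts none of the libraries contrasted in Trp53 WT, but both come from one fit with a shared estimate of the spread. Without a filter on low counts the number was 285. Leaving out Rps6 WT, Trp53 null replicate 1 or 2 gave 60 and 61 calls, and leaving out Rps6 het, Trp53 null replicate 3 gave 72. Of the 20 transcripts with the largest rises in Trp53 WT, 10 passed the filter only through the Rps6 het, Trp53 WT pools, being at its threshold in under 3 of the other 9 libraries. The median level of the 20 in Trp53 null was 0.629 CPM and the median SE of their change there 0.34 on the log2 scale. A lack of calls among them there thus says little about changes smaller than those with Trp53. The median change of the 20 in Trp53 null was 0.04, with a middle range from −0.2 to 0.28. For the 92 falls of 1 to 2, where the median level in Trp53 null was 2.08 CPM, the median change there was −0.1. There edgeR, DESeq2 and limma-voom called 0 of the 92. By edgeR 7 of the 92 had an unadjusted p under 0.05, beside 1452 of all 12147 transcripts. Of the 92, 5 passed the filter only through the Rps6 WT, Trp53 WT pools. The median SE over the 92 in Trp53 null was 0.26 on the log2 scale. Their lack of calls thus says little about changes smaller than those with Trp53 either. The middle range of their changes in Trp53 null was −0.285 to 0.0573, beside a median of −1.22 with Trp53, on which they were chosen.

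One transcript with a large rise kept most of it without Trp53. Of the 45 rises of 1 to 2 on the log2 scale, edgeR called 1 in Trp53 null (2.22%), limma-voom 1 and DESeq2 0. A transcript without a DESeq2 adjusted p counted as not called. The transcript called by edgeR was singled out after its values were seen. Its footprint level was 16.3, 15 and 15.5 CPM in Rps6 WT, Trp53 WT and 63, 58 and 64 CPM in Rps6 het, Trp53 WT. Without Trp53 it was 18.6, 15 and 19.3 CPM in Rps6 WT and 51.5, 65.7 and 53.8 CPM in Rps6 het. The Rps6 het pools stood far above the Rps6 WT pools in both backgrounds. The rise in Trp53 null was 1.69 ± 0.09 (SE) on the log2 scale (edgeR adjusted p = 1.92e-12), beside 1.98 ± 0.091 (SE) with Trp53. The difference between the rises, 0.3 ± 0.13 (SE), was not called (edgeR adjusted p = 0.19). With Trp53, the RNA of this transcript rose by 1.05 ± 0.046 (SE), and the footprint change less the RNA change was 0.94 ± 0.11 (SE, edgeR adjusted p = 9.52e-06).

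Called footprint changes kept their direction in Trp53 null more often than not. Of the 1313 rises of up to 0.5 on the log2 scale, 77.2% had the same sign in Trp53 null, and of the 1069 falls of that size 75.6% did. For rises and falls of 0.5 to 1 the shares were 74.1% and 69.6%. For those of 1 to 2 they were 57.8% and 65.2%, and beyond 2 they were 60% and 57.1%. Among the transcripts not called in Trp53 WT the share was 56.5%. Their median level in Rps6 WT was 18.4 CPM, against 79.4 and 58.6 CPM for rises and falls of up to 0.5. The median changes in Trp53 null were small for changes of up to 0.5, 0.06 for rises and −0.05 for falls. Of the 1313 rises, 57 were called in Trp53 null (4.34%), 56 of them higher. Of the 220 rises of 0.5 to 1, 11 were called (5%), all 11 higher. Of the 1069 small falls, 17 were called (1.59%), all 17 lower, and of the 253 falls of 0.5 to 1, 5 were called (1.98%), all 5 lower. These percentages stand beside 0.906% over all transcripts tested.

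The transcripts that passed the test in both Trp53 backgrounds were mostly abundant ones that rose. In all 91 did so. They were 3.01% of the calls in Trp53 WT, where 0.906% of all tested transcripts were called in Trp53 null. They were 82.7% of the calls in Trp53 null, where 24.9% of all tested transcripts were called in Trp53 WT. Footprints of 68 of them rose in both backgrounds, those of 22 fell in both and 1 went opposite ways. The 68 had a median footprint level of 550 CPM in Rps6 WT, Trp53 WT, while the median over all 1598 rises was 58.5 CPM. Small changes are called more readily in abundant transcripts. In Trp53 null the median SE was 0.054 on the log2 scale for rises of up to 0.5 (median level 81.9 CPM). For rises of 1 to 2 it was 0.25 (1.9 CPM). The high level is therefore not read as a trait of the 68. Their median rise was 0.44 on the log2 scale with Trp53 and 0.24 without. The median RNA change of the 68 in Trp53 WT was 0.13. The 68 were chosen for called footprint rises, which can make their footprint medians larger. Over all transcripts at 100 CPM or more the median SE of the footprint change with Trp53 was 0.04. How much of the gap between the footprint and RNA medians comes from that choice was not tested. The gap is therefore not read as a difference between footprints and RNA, nor as a product of the choice. The 22 that fell had median changes of −0.24 with Trp53 and −0.22 without.

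The difference between the footprint changes in the 2 backgrounds was tested as an interaction of Rps6 and Trp53. It was called for 857 transcripts (7.06%), 479 with a more positive change in Trp53 WT (3.94%) and 378 with a more negative one (3.11%). Leaving out a pool gave 513 to 925 calls. The count fell below the main one by more than 1.5 times without replicate 3 of Rps6 WT, Trp53 WT (523), replicate 2 of Rps6 het, Trp53 WT (557), replicate 2 of Rps6 WT, Trp53 null (548) and replicate 3 of Rps6 het, Trp53 null (513). The 4 transcripts given by ID were among those called. This test shares its Trp53 WT pools with the comparison that named them.

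**Figure D5:**
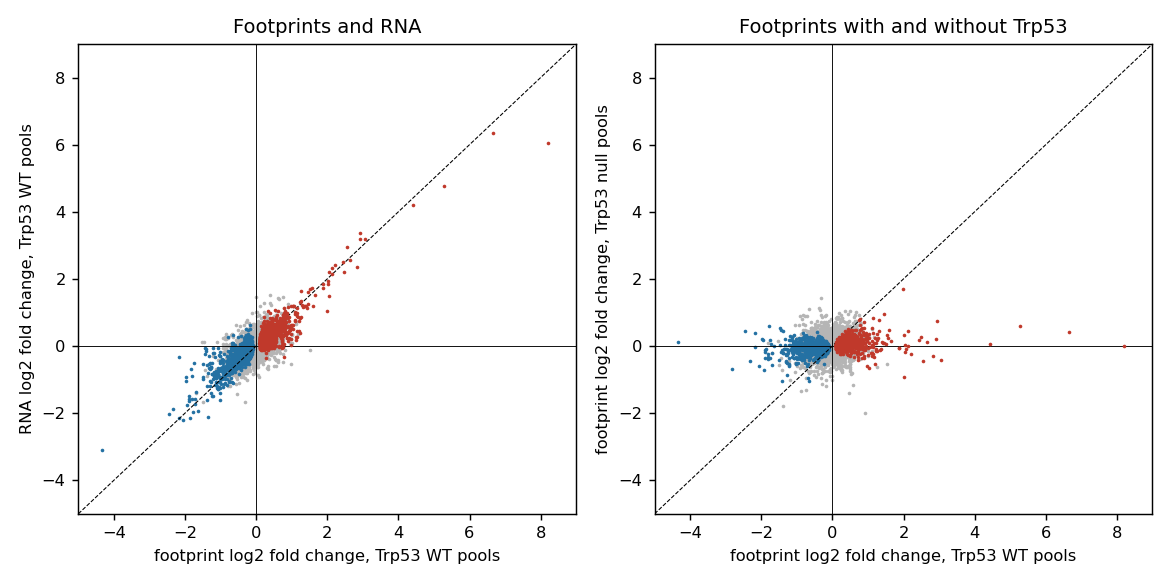
Each point is a transcript, with its footprint log2 fold change of Rps6 het over Rps6 WT in Trp53 WT pools on the x axis, and on the y axis its RNA log2 fold change in the same pools (left) or its footprint log2 fold change in Trp53 null pools (right). Colours are those of the footprint call in Trp53 WT, red higher, blue lower and grey not called, and the dashed line marks equal changes. The largest rises lie along the line on the left, with a median RNA change of 2.49 for the 19 of the 20 transcripts beyond 2 that were tested in RNA. One transcript near 2 on the x axis also rose on the right, by 1.69.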

How the data were processed

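The authors deposited one table of raw counts in whole numbers, with 21960 versioned Ensembl mouse transcript IDs and 24 libraries. By its name, footprint counts cover coding sequences. Which stretch the RNA counts cover is not given in the sources used here. Bowtie2, UMI-tools and the builds GRCm38 and mm10 are named in the submitters' processing notes, without versions or roles, so whether counts are of unique molecules is not given in the sources used here, and count floors cover counting error only. Column headers give a barcode for each library and no run or date.

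Tests used edgeR 4.0.16 (R 4.3.3; filterByExpr with a minimum count of 10 and total of 15, TMM within each library kind, glmQLFit and glmQLFTest). All 12 footprint libraries of the 4 genotypes entered one fit without covariates, and RNA libraries another. Translational efficiency was fitted over all 24 libraries. SE were derived from the F statistic. Principal components and pool distances were taken from log2 CPM (prior count 2). Scripts were tested on simulated data. Transcripts given by ID are the 2 called rises and 2 called falls with the smallest p whose pools do not overlap, a rule for IDs that match no gene name. Gene lists prepared by symbol could not be applied for the same reason. The comparison, the rule and the lists were chosen with earlier results of these data known.

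Replicates of one genotype differed by more than sampling noise (chi-square per degree of freedom 2.15 to 3.36), and all were counted. Whether pools came from separate litters is not given, so p-values measure the spread between these pools. Footprint and RNA libraries with the same genotype and number are taken as parts of one pool, since the labels' protocols split each lysate. Their deviations from group means correlated across transcripts by 0.11 to 0.38 in the 6 Trp53 WT pools. Alternatives were DESeq2 1.42.0, limma-voom (limma 3.58.1), DESeq2 size factors within edgeR, other filters, only the compared groups, a replicate block and leaving out each pool.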

Additional observations from a re-analysis of the deposited data

Results flagged for a closer look

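The footprint change in Rps6 het differed between the Trp53 backgrounds by the interaction test for 857 transcripts. Among them were the 4 transcripts given by ID. Subtracting the log2 fold change without Trp53 from the one with it gave 2.7 ± 0.12 (SE) for ENSMUST00000119901.8 (edgeR adjusted p = 4.07e-14) and 3.49 ± 0.19 for ENSMUST00000020576.7 (edgeR adjusted p = 8.9e-13). It gave −0.89 ± 0.058 for ENSMUST00000000476.14 (edgeR adjusted p = 6.04e-11) and −0.97 ± 0.078 for ENSMUST00000000579.2 (edgeR adjusted p = 2.43e-09). These 4 were chosen for their change in the Trp53 WT pools, which enter the interaction, so its size for them is partly set by that choice.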

How the results depend on the processing

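The footprint comparison in Trp53 WT gave 2299 to 3194 calls under its 7 alternatives that keep all pools, against 3019, and 2183 to 2735 when one of its 6 pools was left out. Same-numbered pools of the 2 genotypes did not deviate together (correlations of 0.03, 0.065 and 0.033 over 8284 transcripts), and the replicate block gave 3171 calls. Leaving out a pool gave 2211 to 3418 calls in RNA, where 3580 were called and the count was 2211 without Rps6 WT replicate 3 and 2292 without Rps6 het replicate 1. It gave 58 to 177 calls for translational efficiency, 60 to 92 for footprints in Trp53 null and 513 to 925 for the interaction. Testing every row regardless of its counts gave 282 calls for efficiency and 285 for footprints in Trp53 null. DESeq2 called 261 for efficiency. With the replicate block 168 were called for footprints in Trp53 null, and with the pool as a block 393 for efficiency. The causes of these differences were not tested. TMM and the DESeq2 size factors both centre the bulk of the transcripts near 0, so neither would show a change common to all. Precision was lowest under 3 CPM, with a median SE of 0.31 on the log2 scale, and no library was thinned to separate depth from the spread between pools.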

Other observations

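Footprints were spread over fewer transcripts in Rps6 het limbs with Trp53. The most abundant transcripts that together hold 50% of the counts numbered 649 to 674 in the Rps6 WT pools and 589 to 620 in the Rps6 het pools, without overlap. The exact permutation test gives p = 0.1, the smallest that 3 pools against 3 allow. In Trp53 null the numbers were 649 to 659 in Rps6 WT and 639 to 650 in Rps6 het. In RNA of the Trp53 WT pools they were 947 to 974 in Rps6 WT and 922 to 932 in Rps6 het. The top 10 transcripts by count held 4.59% to 4.79% of all footprints in Rps6 WT, Trp53 WT and 4.93% to 5.36% in Rps6 het, Trp53 WT.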
